A study of Homo sapiens with 8 samples.

Results

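Axon guidance genes code for the secreted and membrane-bound cues, and the receptors that read them, by which growing axons and migrating cells turn, retract or adhere. The 58 genes described here, of 18404 measured, are the semaphorins (19 genes), their neuropilin (2) and plexin (9) receptors, the Eph receptors (13), the ephrins (8), the Slits (3) and the Robo receptors (4). They were taken by gene symbol, and each is represented by the probe set with the highest mean over the arrays among those assigned to that 1 symbol. A further 2 genes whose symbols follow the rule were not analysed here.

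Expression was measured on arrays in COLO829, an established melanoma line in which BRAF carries an activating mutation. The study crossed 2 perturbations, and all 4 groups carried a pGIPZ hairpin vector and had been through 2 days of puromycin selection. Knockdown PLX4032 cells carried a hairpin against MITF, the master regulator of the melanocyte lineage, and received the BRAF inhibitor PLX4032 (vemurafenib) at 1 µM for 24 h. Knockdown DMSO cells carried that hairpin and received the vehicle, scrambled PLX4032 cells carried a control hairpin and received the inhibitor, and scrambled DMSO cells carried the control hairpin and received the vehicle. Each group had 2 arrays, A and B. The labels name 1 hairpin against MITF and 1 cell line, and nothing in them states that arrays A and B came from separate cultures. The p-values therefore cover the spread between A and B, which may be technical.

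Semaphorins are read by plexins, which act on small GTPases inside the cell, and the secreted class 3 semaphorins mostly need a neuropilin as co-receptor. Ephrins are anchored in the membrane and bind Eph receptor tyrosine kinases on a neighbouring cell, so that both cells can receive a signal, with ephrin-A ligands binding mainly EPHA and ephrin-B ligands mainly EPHB receptors. Slits are large secreted proteins that act through Robo receptors, mostly as repellents. Melanocytes descend from the neural crest, whose cells migrate along paths set by these same families.

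The labels were checked against defining genes. MITF read 10.07 and 10.08 in knockdown PLX4032 cells, 9.57 and 9.47 in knockdown DMSO cells, 10.88 and 10.80 in scrambled PLX4032 cells and 10.44 and 10.46 in scrambled DMSO cells. It was lower in the knockdown cells under both treatments, by 0.93 ± 0.08 (SE) in DMSO and by 0.76 ± 0.08 in PLX4032 on the log2 scale. DUSP6, a phosphatase induced by MAPK signalling, fell under PLX4032 by 2.55 ± 0.084 in knockdown cells and by 2.68 ± 0.084 in scrambled cells, and SPRY4, another MAPK target, fell by 5.30 ± 0.1 in knockdown cells and by 4.50 ± 0.1 in scrambled cells. The mean log2 level of the 10 melanocyte markers measured lay between 9.7 and 9.71 in knockdown PLX4032 cells, 8.75 and 8.8 in knockdown DMSO cells, 10.25 and 10.4 in scrambled PLX4032 cells and 9.38 and 9.4 in scrambled DMSO cells. Lists of endothelial, keratinocyte and leukocyte markers averaged between 4.5 and 5.12 on every array. The 8 neuron markers measured, which mark cells that use guidance genes heavily, averaged 5.57 to 5.63 in knockdown PLX4032 cells, 5.5 to 5.51 in knockdown DMSO cells, 5.3 to 5.36 in scrambled PLX4032 cells and 5.27 to 5.31 in scrambled DMSO cells, and the 8 fibroblast markers averaged 5.67 to 5.79 in knockdown PLX4032 cells, 5.67 to 5.72 in knockdown DMSO cells, 5.58 to 5.64 in scrambled PLX4032 cells and 5.51 to 5.6 in scrambled DMSO cells. The melanocyte list was lower in knockdown cells and higher under PLX4032, and the neuron and fibroblast lists were higher on every knockdown array than on every scrambled array; their part in the results below was not tested.

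In each comparison the share of guidance genes called changed was above the share of all genes, as the plot of shares shows. This is a description with no test, of members chosen with earlier results of these data known. The members' median level was 7.16, beside 6.8 for all genes. A gene is called changed where limma's adjusted p, over all 18404 genes, was under 0.05. Comparing knockdown with scrambled cells in DMSO, 27 members rose and 11 fell, 65.5% of the 58, beside 33.2% of all genes (14.4% rose and 18.8% fell). Without knockdown DMSO array B, 24 members and 3723 genes were called there, against 38 members and 6114 genes with it. Under PLX4032, the same comparison of hairpins gave 23 members that rose and 7 that fell, 51.7%, beside 28.5% of all genes (13.5% rose and 15% fell). In both comparisons of hairpins, members that rose outnumbered members that fell, while among all genes falls outnumbered rises. PLX4032 against DMSO raised 21 members and lowered 12 in knockdown cells, 56.9%, beside 33.7% of all genes (18.6% rose and 15.1% fell). In scrambled cells PLX4032 raised 19 members and lowered 13, 55.2%, beside 34.1% of all genes (17.3% rose and 16.8% fell). With both perturbations against neither, 31 rose and 10 fell, 70.7%, beside 48.6% of all genes (27.1% rose and 21.5% fell). In bulk RNA, fewer cells that carry a transcript and less transcript per cell cannot be told apart. Of the members, 19 averaged under 5.87, the level below which the dimmest 40% of genes lie; no detection calls were used, so a low value there is not evidence of absence.

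**Figure D1:**
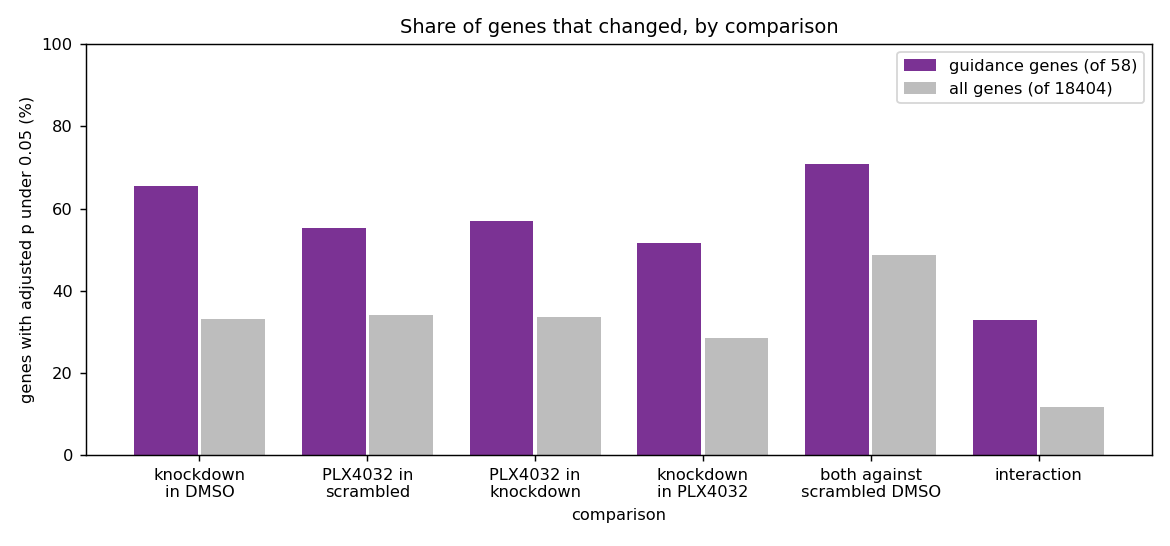
The share of genes that changed (y axis, percent with adjusted p under 0.05) in each of 6 comparisons, for the 58 guidance genes (purple) and all 18404 genes (grey). The guidance share is the higher bar throughout, from 70.7% with both perturbations to 32.8% for the interaction, which is the PLX4032 change in knockdown cells minus that in scrambled cells.

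On knockdown the members had a median log2 change of 0.26 in DMSO and 0.19 in PLX4032, against 0.02 over all genes in each. PLX4032 contrasts had member medians of 0.08 in knockdown cells and 0.11 in scrambled cells, against 0.04 and 0.05 over all genes. The comparisons of hairpins within DMSO and within PLX4032 use different arrays, and 19 members rose and 5 fell in both, beside 6.75% and 9.71% of all genes. The 2 comparisons of PLX4032 with DMSO likewise share no array, and 12 members rose and 7 fell in both, beside 10.4% and 10.6% of all genes. All comparisons nonetheless used the same estimate of a gene's spread, so calls in both are not independent. Changes of at least 2-fold were called for 11 members on knockdown in DMSO and 14 in PLX4032, beside 3.52% and 4.17% of all genes. PLX4032 changed 9 members by at least 2-fold in knockdown cells and 11 in scrambled cells, beside 5.61% and 4.72% of all genes. Both perturbations against neither changed 16 by at least 2-fold, beside 8.82% of all genes. Members called in none of the 5 comparisons of groups were EFNB1, EPHA6, EPHA7, EPHB6, PLXNA4, ROBO4 and SEMA5B.

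**Figure D2:**
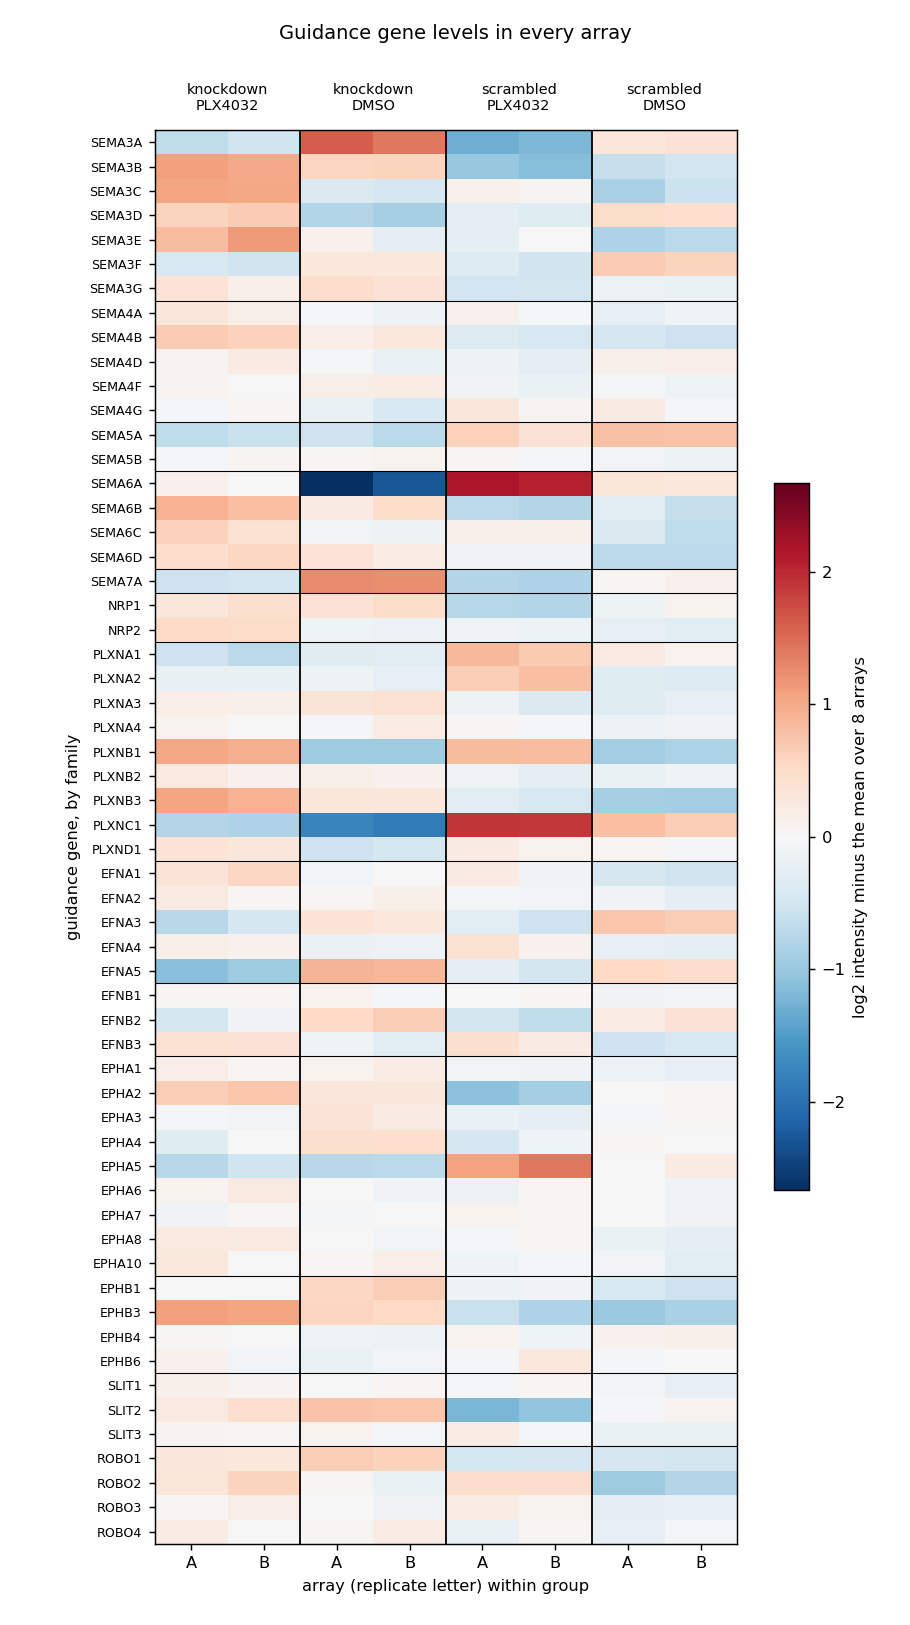
The log2 level of each of the 58 guidance genes (rows, by family) on each of the 8 arrays (columns, by group), as the difference from that gene's mean over all 8 arrays, red for higher and blue for lower. SEMA6A and PLXNC1 are the deepest blue in the knockdown DMSO columns, while SEMA3B, EPHB3 and PLXNB3 are red in every knockdown column.

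Among the ligands, the 7 secreted class 3 semaphorins were all called on knockdown in DMSO (5 rose, 2 fell), beside 33.2% of all genes. All were also called under PLX4032 in scrambled cells (2 rose, 5 fell), beside 34.1%. In PLX4032 knockdown raised 6 and lowered 0, 85.7%, beside 28.5%. Some of these calls were lost when some 1 array was left out. On knockdown in DMSO they were SEMA3C (0.16 to 0.44 over all such fits) and SEMA3F (-0.41 to -0.32). Under PLX4032 in scrambled cells they were SEMA3E (0.53 to 0.77) and SEMA3G (-0.35 to -0.33). SEMA3A, the prototype repellent of this class, read 9.13 and 9.26 in knockdown PLX4032 cells, 11.41 and 11.21 in knockdown DMSO cells, 8.49 and 8.61 in scrambled PLX4032 cells and 10.10 and 10.19 in scrambled DMSO cells. It was highest in knockdown DMSO cells, and every PLX4032 array was below every DMSO array. Treatment with PLX4032 lowered it by 2.11 ± 0.096 in knockdown cells (adjusted p = 4.11e-08) and by 1.60 ± 0.096 in scrambled cells (adjusted p = 5.06e-07), and knockdown raised it by 1.16 ± 0.096 in DMSO (adjusted p = 6.24e-06).

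SEMA3B, a secreted semaphorin read through neuropilins, behaved otherwise. Its levels were 10.48 and 10.39 in knockdown PLX4032 cells, 9.96 and 9.97 in knockdown DMSO cells, 8.37 and 8.25 in scrambled PLX4032 cells and 8.76 and 8.88 in scrambled DMSO cells. Both knockdown groups lay above both scrambled groups, with no overlap. The rise on knockdown was 2.12 ± 0.086 in PLX4032 (adjusted p = 2.05e-08) and 1.15 ± 0.086 in DMSO (adjusted p = 3.08e-06). PLX4032 raised it in knockdown cells by 0.47 ± 0.086 and lowered it in scrambled cells by 0.50 ± 0.086.

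SEMA3D gave the largest difference among the 58 between the PLX4032 changes of the hairpins. It read 9.11 and 9.20 in knockdown PLX4032 cells, 7.74 and 7.63 in knockdown DMSO cells, 8.26 and 8.19 in scrambled PLX4032 cells and 9.0 and 8.97 in scrambled DMSO cells. The lowest arrays were those of knockdown DMSO cells, and knockdown PLX4032 and scrambled DMSO cells were both near the top. Treatment with PLX4032 raised it by 1.48 ± 0.083 in knockdown cells (adjusted p = 1.91e-07) and lowered it by 0.76 ± 0.083 in scrambled cells (adjusted p = 3.75e-05). Knockdown accordingly raised it by 0.93 ± 0.083 in PLX4032 and lowered it by 1.30 ± 0.083 in DMSO. With both perturbations against neither, the change was 0.17 ± 0.083, not called (adjusted p = 0.109).

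SEMA3C and SEMA3E were highest where both perturbations were combined. SEMA3C, which acts through neuropilins with plexins D1 and A, read 11.62 and 11.60 in knockdown PLX4032 cells, 10.18 and 10.12 in knockdown DMSO cells, 10.68 and 10.64 in scrambled PLX4032 cells and 9.71 and 10.0 in scrambled DMSO cells. Its rise with both perturbations against scrambled DMSO was 1.76 ± 0.099 (adjusted p = 1.09e-07), and the PLX4032 rise was 1.46 ± 0.099 in knockdown and 0.80 ± 0.099 in scrambled cells. SEMA3E, which binds plexin D1 without a neuropilin, read 7.07 and 7.38 in knockdown PLX4032 cells, 6.36 and 6.0 in knockdown DMSO cells, 6.01 and 6.25 in scrambled PLX4032 cells and 5.42 and 5.53 in scrambled DMSO cells. The knockdown PLX4032 arrays were the highest and the scrambled DMSO arrays the lowest. Both perturbations together raised it by 1.75 ± 0.14 (adjusted p = 1.58e-06), and PLX4032 raised it by 1.05 ± 0.14 in knockdown cells. Of the other class 3 genes, SEMA3F, a ligand of neuropilin-2, fell under PLX4032 by 0.75 ± 0.093 in knockdown and 1.08 ± 0.093 in scrambled cells, and SEMA3G rose on knockdown by 0.75 ± 0.091 in PLX4032 and 0.58 ± 0.091 in DMSO.

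Of the 12 membrane-attached semaphorins (classes 4 to 7), knockdown raised 6 and lowered 2 in PLX4032 and raised 6 and lowered 3 in DMSO. Those are 66.7% and 75.0% called, beside 28.5% and 33.2% of all genes. PLX4032 raised 5 and lowered 1 in knockdown cells and raised 3 and lowered 2 in scrambled cells. Those are 50.0% and 41.7%, beside 33.7% and 34.1%. SEMA6A, a transmembrane semaphorin that binds plexins A2 and A4, read 8.92 and 8.82 in knockdown PLX4032 cells, 6.14 and 6.52 in knockdown DMSO cells, 10.96 and 10.88 in scrambled PLX4032 cells and 9.14 and 9.08 in scrambled DMSO cells. It spanned the widest range of any member, with knockdown DMSO cells lowest and scrambled PLX4032 cells highest. The inhibitor raised it by 2.54 ± 0.12 in knockdown cells (adjusted p = 4.07e-08) and by 1.81 ± 0.12 in scrambled cells (adjusted p = 7.41e-07). Knockdown lowered it by 2.05 ± 0.12 in PLX4032 (adjusted p = 2.43e-07) and by 2.78 ± 0.12 in DMSO (adjusted p = 5.79e-08). The changes were opposite in sign, and knockdown PLX4032 cells differed from scrambled DMSO cells by -0.24 ± 0.12 (adjusted p = 0.108), which was not called.

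The other class 6 genes rose on knockdown, where SEMA6A fell. SEMA6B read 7.68 and 7.55 in knockdown PLX4032 cells, 6.97 and 7.25 in knockdown DMSO cells, 6.04 and 5.97 in scrambled PLX4032 cells and 6.47 and 6.11 in scrambled DMSO cells. Knockdown raised it by 1.61 ± 0.13 in PLX4032 (adjusted p = 3.34e-06) and by 0.82 ± 0.13 in DMSO, without overlap between the groups. SEMA6D, a ligand of plexin A1, rose on knockdown by 0.61 ± 0.085 in PLX4032 and by 0.99 ± 0.085 in DMSO. SEMA6C rose by 0.38 ± 0.11 in PLX4032, a call lost without knockdown PLX4032 array A or either scrambled PLX4032 array (0.27 to 0.49 over all such fits), and by 0.43 ± 0.11 in DMSO, lost without knockdown DMSO array A or scrambled DMSO array B (0.29 to 0.58). In class 4, SEMA4B rose on knockdown by 1.05 ± 0.085 in PLX4032 and 0.72 ± 0.085 in DMSO.

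SEMA5A, whose reported receptor is plexin B3, was lower in all knockdown cells. It read 6.53 and 6.61 in knockdown PLX4032 cells, 6.65 and 6.49 in knockdown DMSO cells, 7.82 and 7.60 in scrambled PLX4032 cells and 8.0 and 7.98 in scrambled DMSO cells. Knockdown lowered it by 1.14 ± 0.098 in PLX4032 (adjusted p = 6.84e-06) and by 1.41 ± 0.098 in DMSO (adjusted p = 1.84e-06). No change under PLX4032 was called, at log2 -0.0 ± 0.098 in knockdown cells (adjusted p = 0.997). In scrambled cells the change was -0.28 ± 0.098, just over the threshold (adjusted p = 0.0501) and with no overlap of arrays. SEMA7A, a lipid-anchored semaphorin that binds plexin C1 and integrins, read 8.31 and 8.36 in knockdown PLX4032 cells, 10.13 and 10.10 in knockdown DMSO cells, 8.09 and 8.05 in scrambled PLX4032 cells and 8.93 and 8.99 in scrambled DMSO cells. Knockdown DMSO arrays stood highest and the other groups lay lower. The inhibitor lowered it by 1.78 ± 0.078 in knockdown cells (adjusted p = 3.26e-08) and by 0.89 ± 0.078 in scrambled cells (adjusted p = 7.39e-06), and knockdown raised it by 1.16 ± 0.078 in DMSO (adjusted p = 1.52e-06).

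**Figure D3:**
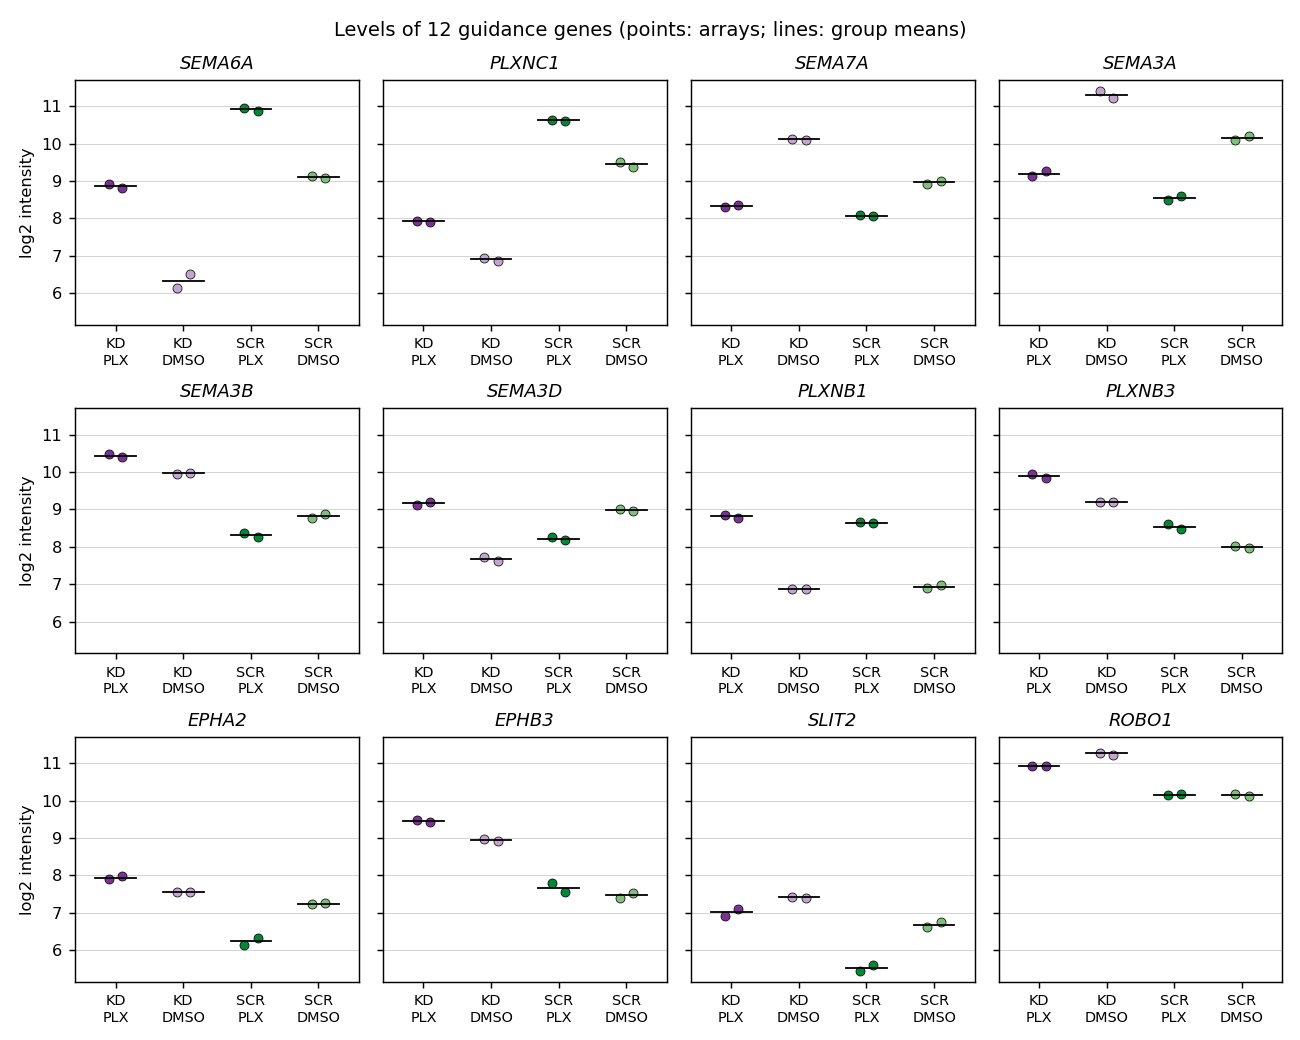
Log2 intensity (y axis) of 12 guidance genes in the 4 groups (x axis: KD for the MITF hairpin, SCR for the scrambled hairpin, PLX for PLX4032), each point 1 array and each line the mean of 2. SEMA6A and PLXNC1 are lower in knockdown than in scrambled cells under the same treatment, while SEMA3D is lowest in knockdown DMSO cells.

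Among the semaphorin receptors, neuropilin-1 (NRP1), which also binds VEGF, read 8.61 and 8.74 in knockdown PLX4032 cells, 8.69 and 8.80 in knockdown DMSO cells, 7.55 and 7.54 in scrambled PLX4032 cells and 8.17 and 8.41 in scrambled DMSO cells. Scrambled PLX4032 cells were lowest, clear of the other groups. PLX4032 lowered NRP1 by 0.75 ± 0.098 in scrambled cells (adjusted p = 0.000141), while its change in knockdown cells was -0.07 ± 0.098 and was not called (adjusted p = 0.657). Knockdown raised it by 1.13 ± 0.098 in PLX4032 (adjusted p = 6.91e-06). Its smaller rise in DMSO, 0.45 ± 0.098, was lost without knockdown DMSO array B, at 0.40. Neuropilin-2 (NRP2) read 10.87 and 10.86 in knockdown PLX4032 cells, 10.24 and 10.21 in knockdown DMSO cells, 10.27 and 10.23 in scrambled PLX4032 cells and 10.15 and 10.08 in scrambled DMSO cells. Knockdown PLX4032 cells stood above the other groups, 0.64 ± 0.078 above knockdown DMSO cells (adjusted p = 6.59e-05) and 0.62 ± 0.078 above scrambled PLX4032 cells (adjusted p = 0.000126). A second NRP2 probe set gave the same order at the top, averaging 10.81 in knockdown PLX4032, 9.73 in knockdown DMSO, 9.99 in scrambled PLX4032 and 9.85 in scrambled DMSO cells.

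The 9 plexins were split by perturbation. On knockdown, 3 rose and 3 fell in each treatment, 66.7%, beside 28.5% of all genes in PLX4032 and 33.2% in DMSO. Under PLX4032 4 rose and 1 fell in knockdown cells and 5 rose and 0 fell in scrambled cells. That is 55.6% in each, beside 33.7% and 34.1%. PLXNC1, the receptor of SEMA7A, read 7.94 and 7.89 in knockdown PLX4032 cells, 6.95 and 6.86 in knockdown DMSO cells, 10.63 and 10.61 in scrambled PLX4032 cells and 9.52 and 9.37 in scrambled DMSO cells. All 4 knockdown arrays lay below all 4 scrambled arrays, and within each hairpin PLX4032 arrays lay above DMSO arrays. Knockdown lowered it by 2.70 ± 0.084 in PLX4032 (adjusted p = 4.27e-09) and by 2.54 ± 0.084 in DMSO (adjusted p = 1.61e-08), and PLX4032 raised it by 1.01 ± 0.084 in knockdown and by 1.18 ± 0.084 in scrambled cells.

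PLXNB1, the receptor of SEMA4D, rose under PLX4032 in both hairpins, and no hairpin change was called. It read 8.85 and 8.78 in knockdown PLX4032 cells, 6.86 and 6.86 in knockdown DMSO cells, 8.66 and 8.64 in scrambled PLX4032 cells and 6.89 and 6.97 in scrambled DMSO cells. The treatments were separated by more than a log2 unit in both hairpins. PLX4032 raised it by 1.96 ± 0.079 in knockdown cells (adjusted p = 1.84e-08) and by 1.72 ± 0.079 in scrambled cells (adjusted p = 7.69e-08). Its hairpin changes were 0.17 ± 0.079 in PLX4032 (adjusted p = 0.151) and -0.07 ± 0.079 in DMSO (adjusted p = 0.536). PLXNB3, by contrast, rose under each perturbation. It read 9.96 and 9.83 in knockdown PLX4032 cells, 9.21 and 9.21 in knockdown DMSO cells, 8.60 and 8.48 in scrambled PLX4032 cells and 8.02 and 7.98 in scrambled DMSO cells. The 4 groups did not overlap, and knockdown PLX4032 cells exceeded scrambled DMSO cells by 1.89 ± 0.085 (adjusted p = 2.33e-08), with a rise of 1.21 ± 0.085 on knockdown alone and of 0.54 ± 0.085 on PLX4032 alone.

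Plexins A1 and A2 rose under PLX4032 in scrambled cells and did not rise in knockdown cells. PLXNA1 read 9.12 and 8.96 in knockdown PLX4032 cells, 9.35 and 9.37 in knockdown DMSO cells, 10.53 and 10.38 in scrambled PLX4032 cells and 9.90 and 9.77 in scrambled DMSO cells. Treatment with PLX4032 raised it by 0.62 ± 0.093 in scrambled cells (adjusted p = 0.000382), whereas the fall of 0.32 ± 0.093 in knockdown cells was lost without knockdown DMSO array A (-0.34), knockdown DMSO array B (-0.31) or knockdown PLX4032 array B (-0.25). Knockdown lowered it by 1.41 ± 0.093 in PLX4032 and by 0.47 ± 0.093 in DMSO. PLXNA2, a dim gene, read 4.73 and 4.73 in knockdown PLX4032 cells, 4.79 and 4.71 in knockdown DMSO cells, 5.58 and 5.74 in scrambled PLX4032 cells and 4.60 and 4.58 in scrambled DMSO cells. Scrambled PLX4032 cells stood above the other groups, by 1.07 ± 0.085 over scrambled DMSO cells (adjusted p = 3.5e-06), and the change in knockdown cells was -0.02 ± 0.085 (adjusted p = 0.894). The difference between the hairpins was itself called for both genes (-0.94 ± 0.13 and -1.09 ± 0.12).

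The remaining plexins changed less. PLXND1, the receptor of SEMA3E, rose under PLX4032 in knockdown cells by 0.84 ± 0.087 (adjusted p = 2e-05) and fell on knockdown in DMSO by 0.50 ± 0.087 (adjusted p = 0.00124). PLXNA3 rose on knockdown in DMSO by 0.64 ± 0.099 (adjusted p = 0.000562). PLXNB2 differed by 0.36 ± 0.092 in PLX4032 and 0.28 ± 0.092 in DMSO, and the call in PLX4032 was lost without knockdown PLX4032 array A or scrambled PLX4032 array B (0.28 each), that in DMSO without any 1 of the 4 DMSO arrays (0.25 to 0.30). PLXNA4 was called nowhere. Its changes between groups lay between -0.05 ± 0.095 and 0.21 ± 0.095.

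Promoters were read for the members with entries in RefSeq's table on GRCh38.p14, which gave 82 windows of the 250 bases before a transcription start for 52 member genes. SEMA6A was among the members with no entry and was not searched. Among the members described above, SEMA3A, SEMA3C, SEMA3D and SEMA3E lie on chromosome 7, and SEMA3B, SEMA3F and SEMA3G on chromosome 3. The E-box forms CACGTG and CATGTG, which MITF is known to bind, were searched on both strands. So was TGANTCA, a looser form of the AP-1 site in which N is any base. CACGTG was found in 4.88% of members' windows and 6.34% of all 35116 windows, CATGTG in 8.54% and 9.42%, and TGANTCA in 1.22% and 6.57%. Each is a match of letters and not a bound site, and the members' windows as a group did not hold them at a higher share than all windows. PLXNC1 is shown as the member with the TGANTCA match, in which N reads T. SEMA3E, SEMA6D and NRP2 are shown as examples of members described above with an E-box form. Windows of PLXNB2, SEMA3G, EPHA8, EPHB6, ROBO1, SEMA4A and SEMA4D also held such a form and are not shown. Capitals mark the match, which for NRP2 is CATGTG read on the opposite strand. The windows are chr12:94262369-94262618 on the plus strand (PLXNC1, match beginning 91 bases before the start), chr7:83649140-83649389 on the minus strand (SEMA3E, 45 bases before), chr15:47183839-47184088 on the plus strand (SEMA6D, 28 bases before) and chr2:205682251-205682500 on the plus strand (NRP2, 47 bases before), each written 5′ to 3′.
PLXNC1: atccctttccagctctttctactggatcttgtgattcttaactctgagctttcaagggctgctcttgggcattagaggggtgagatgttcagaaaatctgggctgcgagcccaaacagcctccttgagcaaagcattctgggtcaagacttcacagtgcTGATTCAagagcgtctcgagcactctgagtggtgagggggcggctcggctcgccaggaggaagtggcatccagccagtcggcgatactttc
SEMA3E: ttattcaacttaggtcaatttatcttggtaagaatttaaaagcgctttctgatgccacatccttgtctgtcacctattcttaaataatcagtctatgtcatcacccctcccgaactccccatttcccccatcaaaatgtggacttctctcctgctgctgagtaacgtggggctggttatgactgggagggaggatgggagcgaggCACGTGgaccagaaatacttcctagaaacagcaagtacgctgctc
SEMA6D: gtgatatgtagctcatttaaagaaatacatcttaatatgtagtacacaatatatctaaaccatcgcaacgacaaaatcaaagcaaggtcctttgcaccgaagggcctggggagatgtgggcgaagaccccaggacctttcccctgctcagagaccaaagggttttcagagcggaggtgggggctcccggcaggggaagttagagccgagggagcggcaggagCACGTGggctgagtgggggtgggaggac
NRP2: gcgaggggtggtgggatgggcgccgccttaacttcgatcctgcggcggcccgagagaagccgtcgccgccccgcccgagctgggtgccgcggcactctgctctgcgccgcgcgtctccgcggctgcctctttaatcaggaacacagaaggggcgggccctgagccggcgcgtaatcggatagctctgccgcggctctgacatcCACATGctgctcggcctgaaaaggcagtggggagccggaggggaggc

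Of the 8 ephrins, PLX4032 raised 3 and lowered 3 in each hairpin, 75.0% called. Of all genes 33.7% were called there in knockdown and 34.1% in scrambled cells. Knockdown raised 1 and lowered 1 in PLX4032 (25.0%, beside 28.5%) and raised 3 and lowered 1 in DMSO (50.0%, beside 33.2%). Every ephrin call on knockdown in DMSO was lost when some 1 array was left out. Over all such fits EFNA1 ran from 0.41 to 0.50, EFNA3 from -0.42 to -0.33 and EFNB3 from 0.195 to 0.368. The EFNA1 rise on knockdown in PLX4032 was lost likewise (0.22 to 0.55). So were the rises of EFNA1 and EFNA4 under PLX4032 in knockdown cells. EFNA5 read 7.15 and 7.32 in knockdown PLX4032 cells, 9.16 and 9.14 in knockdown DMSO cells, 8.0 and 7.78 in scrambled PLX4032 cells and 8.80 and 8.74 in scrambled DMSO cells. PLX4032 arrays were below DMSO arrays in both hairpins, and knockdown PLX4032 arrays were the lowest. PLX4032 lowered it by 1.92 ± 0.098 in knockdown cells (adjusted p = 9.57e-08) and by 0.88 ± 0.098 in scrambled cells (adjusted p = 4.04e-05). Knockdown lowered it by 0.65 ± 0.098 in PLX4032. In DMSO it was 0.38 ± 0.098 higher on knockdown, a call lost without knockdown DMSO array A (0.37), knockdown DMSO array B (0.39) or scrambled DMSO array B (0.35).

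EFNA3 read 6.22 and 6.51 in knockdown PLX4032 cells, 7.34 and 7.26 in knockdown DMSO cells, 6.67 and 6.42 in scrambled PLX4032 cells and 7.71 and 7.63 in scrambled DMSO cells. It followed the treatment, falling under PLX4032 by 0.93 ± 0.11 in knockdown cells (adjusted p = 7.17e-05) and by 1.13 ± 0.11 in scrambled cells (adjusted p = 2.15e-05). EFNB2, best known in arteries and dim on these arrays (mean 5.07), fell under PLX4032 by 0.87 ± 0.13 in knockdown and by 0.87 ± 0.13 in scrambled cells. In the other direction EFNB3 rose under PLX4032 by 0.60 ± 0.099 in knockdown and 0.80 ± 0.099 in scrambled cells, and EFNA1, a ligand of EPHA2, rose by 0.56 ± 0.12 in scrambled cells. EFNB1 was not called anywhere, with changes from 0.01 ± 0.082 to 0.12 ± 0.082.

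Of the 13 Eph receptors, 3 rose and 1 fell on knockdown in PLX4032 and 6 rose and 2 fell in DMSO, and under PLX4032 3 rose and 3 fell in knockdown cells and 3 rose and 1 fell in scrambled cells. Of the receptors 30.8% were called on knockdown in PLX4032 and under PLX4032 in scrambled cells, near the 28.5% and 34.1% of all genes. The share under PLX4032 in knockdown cells was 46.2%, beside 33.7%, and that of knockdown in DMSO 61.5%, beside 33.2%. Of the calls on knockdown in DMSO, those of EPHA1, EPHA2, EPHA3, EPHA4 and EPHB4 were each lost when some 1 array was left out. Over all such fits EPHA3 ran from 0.21 to 0.35 and EPHA4 from 0.41 to 0.44. The calls of EPHA5, EPHB1 and EPHB3 were kept. EPHB3, a receptor of ephrin-B ligands, read 9.48 and 9.43 in knockdown PLX4032 cells, 8.96 and 8.91 in knockdown DMSO cells, 7.78 and 7.56 in scrambled PLX4032 cells and 7.40 and 7.52 in scrambled DMSO cells. All knockdown arrays lay above all scrambled arrays. Knockdown raised it by 1.79 ± 0.094 in PLX4032 (adjusted p = 1.49e-07) and by 1.48 ± 0.094 in DMSO (adjusted p = 9.48e-07). Both perturbations together raised it by 2.0 ± 0.094, a 4.0-fold difference.

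EPHA2, the receptor of EFNA1, read 7.89 and 7.97 in knockdown PLX4032 cells, 7.55 and 7.54 in knockdown DMSO cells, 6.14 and 6.33 in scrambled PLX4032 cells and 7.22 and 7.26 in scrambled DMSO cells. Scrambled PLX4032 cells were well below the other groups. Treatment with PLX4032 lowered it by 1.01 ± 0.088 in scrambled cells (adjusted p = 7.17e-06) and raised it by 0.38 ± 0.088 in knockdown cells (adjusted p = 0.00574). Knockdown raised it by 1.69 ± 0.088 in PLX4032 (adjusted p = 1.43e-07). In DMSO it was 0.31 ± 0.088 higher on knockdown, a call lost without any 1 of the 4 DMSO arrays (0.29 to 0.32).

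EPHA5 and EPHB1 are dim on these arrays. EPHA5 read 4.38 and 4.59 in knockdown PLX4032 cells, 4.38 and 4.41 in knockdown DMSO cells, 6.20 and 6.53 in scrambled PLX4032 cells and 5.14 and 5.33 in scrambled DMSO cells. Scrambled PLX4032 cells were highest and both knockdown groups lowest. The inhibitor raised it by 1.13 ± 0.12 in scrambled cells (adjusted p = 3.13e-05), with 0.09 ± 0.12 in knockdown cells not called (adjusted p = 0.637), and knockdown lowered it by 1.88 ± 0.12 in PLX4032 (adjusted p = 6.62e-07) and 0.84 ± 0.12 in DMSO. EPHB1 read 4.56 and 4.55 in knockdown PLX4032 cells, 5.12 and 5.23 in knockdown DMSO cells, 4.43 and 4.48 in scrambled PLX4032 cells and 4.15 and 4.01 in scrambled DMSO cells. It was highest in knockdown DMSO cells, 1.09 ± 0.085 above scrambled DMSO cells (adjusted p = 4.06e-06), and PLX4032 lowered it by 0.62 ± 0.085 in knockdown cells and raised it by 0.37 ± 0.085 in scrambled cells.

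The other Eph receptors moved by less than a log2 unit in each comparison of groups. EPHA3 fell under PLX4032 in knockdown cells by 0.35 ± 0.085, a call lost without knockdown DMSO array A (-0.28). EPHA4, a dim gene (mean 5.3), fell under PLX4032 in knockdown cells by 0.60 ± 0.13 (adjusted p = 0.00304). EPHA8, also dim (mean 5.19), rose with both perturbations against neither by 0.47 ± 0.08 (adjusted p = 0.00055). EPHA6, EPHA7 and EPHB6 were not called in any comparison. Members not yet described, SEMA4A, SEMA4D, SEMA4F, SEMA4G, EFNA2, EFNA4, EPHA1, EPHA10 and EPHB4, were each called in at least 1 comparison of groups. Every such call of EFNA2, EPHA1, EPHA10, EPHB4, SEMA4D, SEMA4F and SEMA4G was lost when some 1 array was left out. The largest of the called changes of these genes was the rise of EFNA4 under PLX4032 in scrambled cells, 0.50 ± 0.1 (adjusted p = 0.00254).

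SLIT2 was the Slit that varied most. It read 6.92 and 7.10 in knockdown PLX4032 cells, 7.43 and 7.40 in knockdown DMSO cells, 5.45 and 5.61 in scrambled PLX4032 cells and 6.62 and 6.75 in scrambled DMSO cells. Knockdown raised it by 1.48 ± 0.097 in PLX4032 (adjusted p = 7.56e-07) and by 0.73 ± 0.097 in DMSO (adjusted p = 0.000191), with no overlap of arrays. The inhibitor lowered it by 1.16 ± 0.097 in scrambled cells (adjusted p = 5.21e-06), and a fall of 0.40 ± 0.097 in knockdown cells was lost without knockdown PLX4032 array A (-0.31). SLIT1 and SLIT3, both dim, changed by at most 0.25 ± 0.086 (SLIT1, both perturbations) and 0.27 ± 0.096 (SLIT3, PLX4032 in scrambled cells), and neither call was stable. That of SLIT1 was lost without knockdown PLX4032 array A, knockdown PLX4032 array B or scrambled DMSO array B, and that of SLIT3 without any 1 array other than scrambled PLX4032 array B, with log2 changes over all such fits of 0.18 to 0.33 for SLIT1 and 0.15 to 0.39 for SLIT3.

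ROBO1, a receptor of SLIT2, read 10.93 and 10.91 in knockdown PLX4032 cells, 11.28 and 11.23 in knockdown DMSO cells, 10.16 and 10.17 in scrambled PLX4032 cells and 10.17 and 10.13 in scrambled DMSO cells. Both knockdown groups lay above both scrambled groups. Knockdown raised it by 0.76 ± 0.077 in PLX4032 (adjusted p = 2.32e-05) and by 1.10 ± 0.077 in DMSO (adjusted p = 1.85e-06), and PLX4032 lowered it by 0.34 ± 0.077 in knockdown cells, with 0.01 ± 0.077 in scrambled cells not called (adjusted p = 0.928). ROBO2 read 7.81 and 8.09 in knockdown PLX4032 cells, 7.53 and 7.32 in knockdown DMSO cells, 7.95 and 7.96 in scrambled PLX4032 cells and 6.54 and 6.71 in scrambled DMSO cells. Scrambled DMSO cells were the lowest, and PLX4032 raised it by 0.53 ± 0.11 in knockdown cells (adjusted p = 0.00356) and by 1.33 ± 0.11 in scrambled cells (adjusted p = 5.79e-06), while knockdown raised it by 0.80 ± 0.11 in DMSO. ROBO3, a dim gene (mean 5.25), rose under PLX4032 in scrambled cells by 0.37 ± 0.087, a call lost without scrambled PLX4032 array A (0.32). ROBO4, best known in endothelium, was not called anywhere, with changes from -0.02 ± 0.11 to 0.25 ± 0.11.

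Set side by side, cognate ligands and receptors did not always move together. In the pair SEMA7A and PLXNC1 the signs were opposed on knockdown in each treatment and under PLX4032 in each hairpin. Knockdown gave 0.26 ± 0.078 for the ligand and -2.7 ± 0.084 for the receptor in PLX4032, and 1.16 ± 0.078 and -2.54 ± 0.084 in DMSO. PLX4032 gave -1.78 ± 0.078 and 1.01 ± 0.084 in knockdown cells, and -0.89 ± 0.078 and 1.18 ± 0.084 in scrambled cells. Knockdown in DMSO and PLX4032 in scrambled cells share the scrambled DMSO arrays. The ligand's call on knockdown in PLX4032 was lost without any 1 of the PLX4032 arrays (0.24 to 0.29). With both perturbations against scrambled DMSO the signs agreed, at -0.62 ± 0.078 and -1.53 ± 0.084. SEMA5A and PLXNB3 were also opposed on knockdown, at -1.14 ± 0.098 and 1.35 ± 0.085 in PLX4032 and -1.41 ± 0.098 and 1.21 ± 0.085 in DMSO. SLIT2 and ROBO1 both rose on knockdown, at 1.48 ± 0.097 and 0.76 ± 0.077 in PLX4032 and 0.73 ± 0.097 and 1.10 ± 0.077 in DMSO. Under PLX4032 in knockdown cells both fell, at -0.4 ± 0.097 and -0.34 ± 0.077, the SLIT2 call being lost without knockdown PLX4032 array A. In scrambled cells SLIT2 fell at -1.16 ± 0.097 and ROBO1 was not called at 0.01 ± 0.077. ROBO2 instead rose under PLX4032, at 0.53 ± 0.11 in knockdown and 1.33 ± 0.11 in scrambled cells. SEMA3A and NRP1 both fell under PLX4032 in scrambled cells, at -1.60 ± 0.096 and -0.75 ± 0.098, whereas in knockdown cells SEMA3A fell at -2.11 ± 0.096 and NRP1 was not called at -0.07 ± 0.098.

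For 19 members the PLX4032 change itself differed between the hairpins. A fit of the PLX4032 change in knockdown cells minus that in scrambled cells called 19 of the 58 (11 positive, 8 negative), 32.8%, beside 11.8% of all genes (6.97% positive and 4.85% negative). Of these 19 calls 6 were lost when an array was left out, and without knockdown DMSO array B the genes called numbered 1278, against 2176 with it. The largest were SEMA3D at 2.24 ± 0.12 (adjusted p = 1.91e-06), EPHA2 at 1.39 ± 0.12 (adjusted p = 4.22e-05), PLXNA2 at -1.09 ± 0.12 (adjusted p = 0.000179), EPHA5 at -1.04 ± 0.17 (adjusted p = 0.00235), EFNA5 at -1.03 ± 0.14 (adjusted p = 0.00065) and EPHB1 at -0.99 ± 0.12 (adjusted p = 0.000343). At least a 2-fold difference was called for 5 members, beside 2.59% of all genes. PLX4032 was called in opposite directions in the 2 hairpins for 5 members, beside 1.11% of all genes. They were EPHA2, EPHB1, SEMA3B, SEMA3D and PLXNA1, whose fall in knockdown cells was lost without any 1 of 3 arrays, as given above. In contrast the PLX4032 changes of PLXNB1, PLXNC1 and EFNA3 were not shown to differ between hairpins, at 0.24 ± 0.11, -0.16 ± 0.12 and 0.20 ± 0.16.

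**Figure D4:**
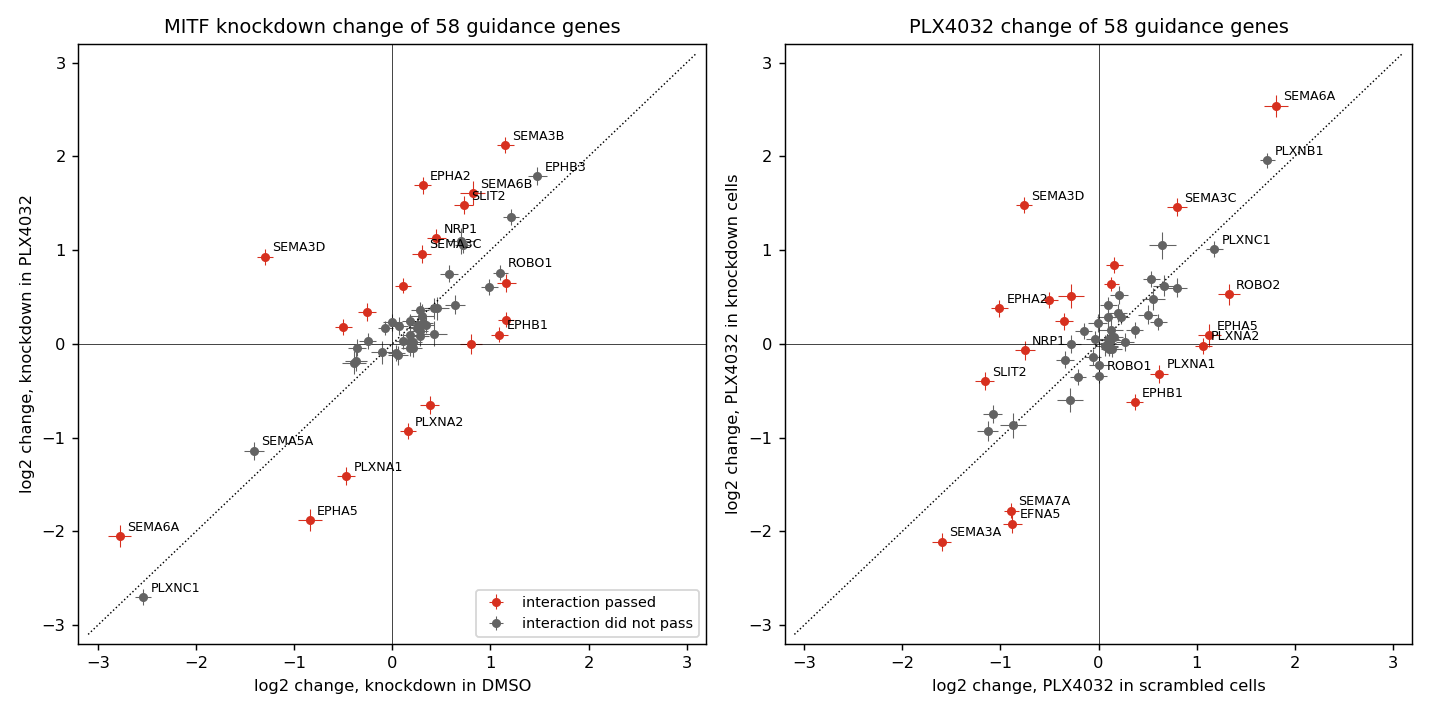
Log2 change of each of the 58 guidance genes on knockdown (left: in DMSO on the x axis, in PLX4032 on the y axis) and under PLX4032 (right: in scrambled cells on the x axis, in knockdown cells on the y axis). Bars are SE, the dotted line marks equal change, and red marks the 19 genes whose PLX4032 change differed between hairpins, with SEMA3D farthest from the line.

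Signalling partners of these receptors were examined as 3 lists, and netrins with their receptors and partners as another. Of 38 measured semaphorin and plexin partners, 11 rose and 8 fell on knockdown in PLX4032, and 8 rose and 8 fell in DMSO, which is 50.0% and 42.1% called, beside 28.5% and 33.2% of all genes. PLX4032 raised 9 and lowered 7 of them in knockdown cells, and raised 13 and lowered 4 in scrambled cells, 42.1% and 44.7%, beside 33.7% and 34.1%. MET, a receptor tyrosine kinase that associates with class B plexins, read 8.08 and 7.93 in knockdown PLX4032 cells, 9.12 and 9.13 in knockdown DMSO cells, 11.48 and 11.29 in scrambled PLX4032 cells and 10.01 and 10.04 in scrambled DMSO cells. MET was lower in knockdown than in scrambled cells in both treatments, with no overlap of arrays, and the gap was wider under PLX4032. The inhibitor lowered it by 1.12 ± 0.092 in knockdown cells (adjusted p = 3.31e-06) and raised it by 1.36 ± 0.092 in scrambled cells (adjusted p = 1.11e-06). DPYSL3, a collapsin response mediator that relays semaphorin signals to the cytoskeleton, read 9.27 and 9.44 in knockdown PLX4032 cells, 6.09 and 6.20 in knockdown DMSO cells, 6.88 and 6.97 in scrambled PLX4032 cells and 5.94 and 6.04 in scrambled DMSO cells. PLX4032 raised it by 3.21 ± 0.092 in knockdown cells (adjusted p = 2.46e-09) and by 0.94 ± 0.092 in scrambled cells (adjusted p = 1.75e-05). RND3, a GTPase of the Rnd family that plexins bind, fell under PLX4032 by 1.17 ± 0.089 in knockdown and by 1.98 ± 0.089 in scrambled cells.

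Of 37 Eph and ephrin partners, 14 rose and 5 fell under PLX4032 in knockdown cells and 11 rose and 5 fell in scrambled cells, which is 51.4% and 43.2% called, beside 33.7% and 34.1% of all genes. On knockdown 8 rose and 4 fell in PLX4032 and 3 rose and 10 fell in DMSO, 32.4% and 35.1%, near the 28.5% and 33.2% of all genes. ANKS1A, an adaptor of EPHA receptors, read 8.95 and 8.99 in knockdown PLX4032 cells, 11.01 and 10.93 in knockdown DMSO cells, 9.19 and 9.18 in scrambled PLX4032 cells and 9.92 and 9.98 in scrambled DMSO cells. It fell under PLX4032 by 2.0 ± 0.079 in knockdown cells (adjusted p = 1.57e-08) and by 0.77 ± 0.079 in scrambled cells (adjusted p = 2.43e-05). PDZRN3, a ubiquitin ligase, rose under PLX4032 by 1.82 ± 0.082 in knockdown and 0.75 ± 0.082 in scrambled cells. TIAM1, a Rac exchange factor on both this list and the semaphorin list, rose by 1.60 ± 0.084 and 0.98 ± 0.084 in those same comparisons.

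Of 25 Slit and Robo partners, 11 rose and 4 fell under PLX4032 in knockdown cells and 6 rose and 5 fell in scrambled cells, which is 60.0% and 44.0% called, beside 33.7% and 34.1% of all genes. On knockdown 8 rose and 1 fell in PLX4032 and 7 rose and 6 fell in DMSO, 36.0% and 52.0%, beside 28.5% and 33.2%. FLRT1, an adhesion protein whose family binds Robo1 and Unc5 receptors, read 8.24 and 8.22 in knockdown PLX4032 cells, 5.71 and 5.60 in knockdown DMSO cells, 5.63 and 5.47 in scrambled PLX4032 cells and 5.41 and 5.12 in scrambled DMSO cells. Knockdown PLX4032 cells were clear of the other groups, 2.58 ± 0.11 above knockdown DMSO cells (adjusted p = 2.19e-08) and 2.69 ± 0.11 above scrambled PLX4032 cells (adjusted p = 1.84e-08). FLRT3 rose on knockdown by 1.57 ± 0.1 in PLX4032 and by 1.21 ± 0.1 in DMSO.

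Of 19 genes of netrin signalling, 2 rose and 2 fell under PLX4032 in each hairpin, which is 21.1% called in each, below the 33.7% of all genes in knockdown cells and the 34.1% in scrambled cells. On knockdown 3 rose and 0 fell in PLX4032 and 2 rose and 1 fell in DMSO, 15.8% in each, below 28.5% and 33.2%. UNC5C, a repulsive netrin receptor, read 7.26 and 7.25 in knockdown PLX4032 cells, 6.80 and 6.56 in knockdown DMSO cells, 6.88 and 6.94 in scrambled PLX4032 cells and 7.71 and 7.77 in scrambled DMSO cells. Treatment with PLX4032 raised it by 0.58 ± 0.093 in knockdown cells (adjusted p = 0.000552) and lowered it by 0.83 ± 0.093 in scrambled cells (adjusted p = 4.64e-05). NTN4, a secreted netrin of basement membranes, rose under PLX4032 in knockdown cells by 1.0 ± 0.15 (adjusted p = 0.000401), its arrays there reading 6.92 and 7.52.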

How the data were processed

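RNA of 8 COLO829 samples in 4 groups of 2 was biotin-labelled and read on Affymetrix arrays, 1 per sample, per the labels. The authors deposited 1 log2 intensity per probe set and array, made with RMA, per the submitters' processing notes, which give no version. RMA corrects background, normalizes by quantiles and summarises the probes of a set. Genome build and probe annotation: not given in the sources used here. RMA makes the arrays' distributions alike, so a shift of most genes would be removed. No scanner intensities were used here, so signal over background is unknown, and the number of arrays limits the precision.

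Of 32321 probe sets, 19158 carried 1 gene symbol in the platform annotation, 1388 several and 11775 none or no entry; 19128 matched a RefSeq gene by Entrez identifier. The 637 genes with several probe sets kept the one with the highest mean, leaving 18404 genes with no filter. NRP2, SEMA4D and EPHA10 are members with 2 probe sets. Probes of near-identical family members can read more than 1 gene.

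Group means over all 8 arrays were fitted with lmFit and eBayes of limma 3.58.1 in R 4.3.3, two-sided, with Benjamini-Hochberg adjustment over all genes of each comparison and a threshold of 0.05; errors after ± are SE. Tested on simulated data for knockdown in DMSO (18404 genes, 100 changed at each size), it called 94% of changes of 1.0 log2 unit and 49% of those of 0.5. In the deposited data far more genes were called for knockdown in DMSO (6114), which makes the adjusted threshold less strict. The simulated shares therefore do not carry over to these data. A member not called may still have changed. Shown in full are the members with the 8 largest called changes between groups whose arrays did not overlap, in each comparison of 2 groups, and the 6 largest called interactions; neuropilins, plexins, Slits and Robos are named throughout, with up to 3 genes per partner list and comparison. Semaphorins, ephrins and Eph receptors outside this rule were named after their values were seen. The members and lists were chosen with earlier results of these data known. Alternatives were a repeated quantile normalization, leaving out the dimmest 40% of genes, the mean of a gene's probe sets, a replicate block, a trended robust prior, the arrays of the 2 groups only, and leaving out each array.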

Additional observations from a re-analysis of the deposited data

Results flagged for a closer look

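For 19 guidance genes the PLX4032 change in knockdown cells differed from that in scrambled cells by the fit's own test of the difference (limma, adjusted p under 0.05). The difference, in log2 units, is the PLX4032 change in knockdown cells minus that in scrambled cells. Among secreted semaphorins it was 2.24 for SEMA3D, 0.97 for SEMA3B, 0.66 for SEMA3C and -0.52 for SEMA3A, and among membrane-attached ones 0.79 for SEMA6B, 0.72 for SEMA6A, 0.60 for SEMA4D and -0.89 for SEMA7A. For their receptors it was 0.68 for NRP1, 0.51 for NRP2, 0.68 for PLXND1, -0.94 for PLXNA1 and -1.09 for PLXNA2. In the ephrin system it was 1.39 for EPHA2, -1.04 for EPHA5, -0.99 for EPHB1 and -1.03 for EFNA5, and in the Slit system 0.75 for SLIT2 and -0.80 for ROBO2.

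Of these, 6 calls were lost when an array was left out. NRP2 (0.50) and SEMA3C (0.63) were lost without knockdown DMSO array B, and SEMA6A (0.68) without scrambled PLX4032 array B. SEMA6B was lost without knockdown DMSO array A (0.65), scrambled PLX4032 array A (0.82) or scrambled PLX4032 array B (0.76). SEMA4D was lost without knockdown DMSO array B, knockdown PLX4032 array B or scrambled PLX4032 array B, with differences over all such fits of 0.52 to 0.68, and also with the mean of its probe sets (0.32). SEMA3A was lost without array A of any of the 4 groups or without scrambled PLX4032 array B, at -0.61 to -0.42 over all such fits.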

How the results depend on the processing

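Of 193 called changes of guidance genes over the 6 comparisons, 141 kept their call under every alternative run, 52 lost it under at least 1 and 0 reversed; a fit without an array has fewer samples. Repeating the quantile normalization lost 11 calls, a trended prior 6, the arrays of the 2 groups only 8 and the mean of probe sets 4. With 1 array left out, the members called numbered 24 to 40 on knockdown in DMSO (24 without knockdown DMSO replicate B), 29 to 30 under PLX4032 in scrambled cells, 27 to 33 in knockdown cells, 23 to 30 on knockdown in PLX4032, 36 to 42 with both and 15 to 19 for the interaction. All genes called on knockdown in DMSO numbered 3723 to 6377 and for the interaction 1278 to 2132, lowest in each case without knockdown DMSO replicate B. The labels do not state whether the letters A and B pair samples across groups. Correlations of deviations ran from -0.094 to 0.329, the highest for knockdown PLX4032 with scrambled DMSO cells. With 2 arrays a group they cannot decide whether samples were paired. The replicate block gave 37, 32, 33, 29, 41 and 19 members called in those 6 comparisons, in the order given above.

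Single genes were recomputed for every called change and for all values of the neuropilins, plexins, Slits and Robos, not for uncalled values of other members. Among those recomputed, the values that changed sign were uncalled; the cause was not tested. With the mean of probe sets, NRP2 on knockdown in DMSO was -0.010. With quantile normalization repeated, PLXNA4 on knockdown in PLX4032 was -0.039, PLXNB2 under PLX4032 in scrambled cells 0.041, ROBO2 on knockdown in PLX4032 0.039 and SLIT3 under PLX4032 in knockdown cells -0.006. With 1 array left out, changes under PLX4032 in knockdown cells ran from -0.059 to 0.018 for PLXNA2, -0.157 to 0.067 for PLXNA4, -0.030 to 0.128 for PLXNB2, -0.113 to 0.078 for ROBO4 and -0.036 to 0.082 for SLIT3. Those under PLX4032 in scrambled cells ran from -0.131 to 0.135 for PLXNA3, -0.119 to 0.047 for PLXNB2, -0.011 to 0.033 for ROBO1 and -0.049 to 0.180 for ROBO4. On knockdown in PLX4032 the ranges were -0.022 to 0.071 for PLXNA4, -0.140 to 0.137 for ROBO2, -0.108 to 0.037 for ROBO3 and -0.158 to 0.082 for SLIT3, and the interaction of ROBO4 ran from -0.198 to 0.031.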

Other observations

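Of the 58 guidance genes, 24 had their highest group mean in knockdown PLX4032 cells, 17 in knockdown DMSO cells, 12 in scrambled PLX4032 cells and 5 in scrambled DMSO cells. The members' shares were 41.4% in knockdown PLX4032 cells, beside 35.2% of all genes, 29.3% in knockdown DMSO cells, beside 18.7%, 20.7% in scrambled PLX4032 cells, beside 22.5%, and 8.62% in scrambled DMSO cells, beside 23.6%. The lowest group mean lay in knockdown PLX4032 cells for 5 genes (8.62%, beside 22.3% of all genes), in knockdown DMSO cells for 9 (15.5%, beside 23.8%), in scrambled PLX4032 cells for 15 (25.9%, beside 17.6%) and in scrambled DMSO cells for 29 (50.0%, beside 36.3%). No test of these shares was made.

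SEMA4D, the ligand of plexin B1, gave different patterns on its probe sets. The one used averaged 5.25 in knockdown PLX4032, 5.0 in knockdown DMSO, 4.91 in scrambled PLX4032 and 5.26 in scrambled DMSO cells, and the other averaged 4.82 in knockdown PLX4032, 4.69 in knockdown DMSO, 4.57 in scrambled PLX4032 and 4.48 in scrambled DMSO cells. Its calls are therefore uncertain.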
